A study of Mus musculus with 4 samples.

Results

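Complement receptors were read gene by gene in the leukocytes of lung and synovium from TNF+ mice, which carry a human TNF transgene and develop inflammatory arthritis and pulmonary vascular disease, and from TNF- littermates without it. The receptors were 9 of the 32285 genes listed, namely C3ar1, C5ar1, C5ar2, Itgam, Itgax, Itgb2, Vsig4, Cr2 and Cd93. They were chosen by gene symbol, and every one of them was counted in all 4 libraries. The 4 groups were TNF- synovium, TNF+ synovium, TNF- lung and TNF+ lung. All mice were female, on a C57BL/6 background and 4 months old. Tissue of several mice was pooled by genotype before cell capture, so each group is 1 library and no difference could be checked in a replicate. No p-value or standard error is given for this reason. Lung and synovium were digested with different enzymes and live cells were sorted, so levels are compared within a tissue. The labels call the TNF+ mice hTNFtg. The human transgene is not among the genes counted, so the genotype could not be read from these libraries.

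Complement is a set of plasma and tissue proteins that cleave each other in a cascade. Small fragments released on the way, the anaphylatoxins C3a and C5a, act on G protein-coupled receptors of leukocytes, while larger fragments of C3 stay on surfaces and are bound by integrins and by other complement receptors. Myeloid cells carry most of these receptors, and B cells carry the receptor that couples C3 fragments to antigen recognition.

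The unit is the UMI, a count of single captured RNA molecules read near the 3′ end. For each subtype and library, the UMIs of a gene were added up and expressed per 1000000 UMIs of all genes in the same cells, a level written as CPM. These values are not divided by gene length, so a gene is compared between subtypes and libraries and not with another gene. Ranges in parentheses are exact 95% intervals. They cover counting error only and leave out how mice or library preparations vary. A log2 ratio is that of CPM in TNF+ over TNF- cells. It is given where a subtype had at least 50 cells in both libraries and the gene at least 20 UMIs over both. An interval that holds 0 means that counting error alone could give the difference.

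The libraries held 48454234 to 155989523 UMIs in 4246 to 11243 barcodes, and kept cells had a median of 8156.5 to 13104.5 UMIs. In the TNF+ synovium 17.6% of barcodes exceeded the limit on mitochondrial UMIs, against 1.41% to 3.78% in the other libraries. Myeloid cells and lymphocytes together came to 956 cells in the TNF- synovium, 1378 in the TNF+ synovium, 3914 in the TNF- lung and 8534 in the TNF+ lung. Subtypes were named from marker genes that include none of the 9 receptors, and each name stands for cells like that type. In every subtype with at least 50 cells, none of its markers was at 0 UMIs. The same markers gave the names, so this is no separate check of them. The median share of cells with a marker ran from 17.3% (TNF+ synovial mature dendritic cells) to 98.6% (TNF+ lung nonclassical monocytes). The lowest share for a single marker was 2.22%, in TNF+ synovial osteoclasts. Between 5 and 21 barcodes were shared by any pair of libraries. The subtypes that made up the myeloid class differed between genotypes. In the synovium, macrophages were 10.3% of TNF- and 54.0% of TNF+ myeloid cells, and type 2 conventional dendritic cells (cDC2) were 46.6% and 1.42%. In the lung, nonclassical monocytes were 20.8% of TNF- and 49.2% of TNF+ myeloid cells, alveolar macrophages were 31.1% and 12.5%, and neutrophils were 20.8% and 3.36%.

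The genes lie on 6 chromosomes of the mouse build GRCm38. The G protein-coupled receptors C5ar1 (chr7:16246743-16259540, minus strand) and C5ar2 (chr7:16234585-16244154, minus strand) lie next to each other on chromosome 7, and C3ar1 lies on chromosome 6 (chr6:122847138-122856161, minus strand). The integrin alpha chains Itgam (chr7:128062640-128118491) and Itgax (chr7:128129547-128150657) also lie side by side, both on the plus strand of chromosome 7. Their shared beta chain Itgb2 is on chromosome 10 (chr10:77530252-77565708, plus strand). Cr2 is on chromosome 1 (chr1:195136811-195176716), Cd93 on chromosome 2 (chr2:148436640-148443563) and Vsig4 on chromosome X (chrX:96247203-96293438), all on the minus strand. The annotation places Gm49368 over Itgam and Gm26473 over C5ar2 on the same strand. Neither is among the genes counted.

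The 250 bases before the start site are shown for 3 of the receptors whose levels set subtypes apart below and whose window held a motif. The letters of a motif of a myeloid or stress-responsive factor are in capitals. PU.1, a factor of myeloid development, was searched as GAGGAAG, and AP-1, a factor of cell activation, as TGANTCA, each on both strands. The sequences are from RefSeq, build GRCm38.p6, and are written 5′ to 3′ on the strand of the gene. Of the 9 receptors, 7 had an entry there. The window of Cr2, whose level also set subtypes apart, held none of the motifs searched and is not shown.
Itgam (chr7:128062390-128062639, plus strand, PU.1 at -84): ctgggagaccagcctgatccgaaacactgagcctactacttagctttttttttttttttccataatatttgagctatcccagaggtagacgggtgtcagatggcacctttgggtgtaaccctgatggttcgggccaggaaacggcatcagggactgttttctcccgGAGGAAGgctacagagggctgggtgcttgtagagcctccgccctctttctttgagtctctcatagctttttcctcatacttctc
Itgax (chr7:128129300-128129549, plus strand, AP-1 at -56): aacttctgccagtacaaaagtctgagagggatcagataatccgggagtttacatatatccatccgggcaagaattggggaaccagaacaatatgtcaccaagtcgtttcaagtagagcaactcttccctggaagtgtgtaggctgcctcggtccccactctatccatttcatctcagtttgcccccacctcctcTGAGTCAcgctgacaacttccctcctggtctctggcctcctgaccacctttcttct
C3ar1 (chr6:122856158-122856407, minus strand, AP-1 at -22): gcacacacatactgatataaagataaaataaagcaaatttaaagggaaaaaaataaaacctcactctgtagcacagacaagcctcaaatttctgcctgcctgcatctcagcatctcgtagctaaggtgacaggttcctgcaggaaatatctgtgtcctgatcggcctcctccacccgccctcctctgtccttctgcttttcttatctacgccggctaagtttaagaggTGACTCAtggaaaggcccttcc
Among 32851 mouse promoters of this length, 10.6% held GAGGAAG and 6.75% held TGANTCA. C5ar2 and Itgam were the receptors with the first motif, and C3ar1 and Itgax those with the second. A C/EBP motif (TTGCNNAA, in 9.56% of promoters) was found at C5ar2. A RUNX motif (TGTGGT, in 14.0%) was found in the window of C5ar1, which lies within a longer annotated transcript of that gene and so may not be upstream of it. Itgam and Itgax, side by side on the chromosome, held different motifs of this set. A match is a run of letters, and no binding was measured.

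**Figure D1:**
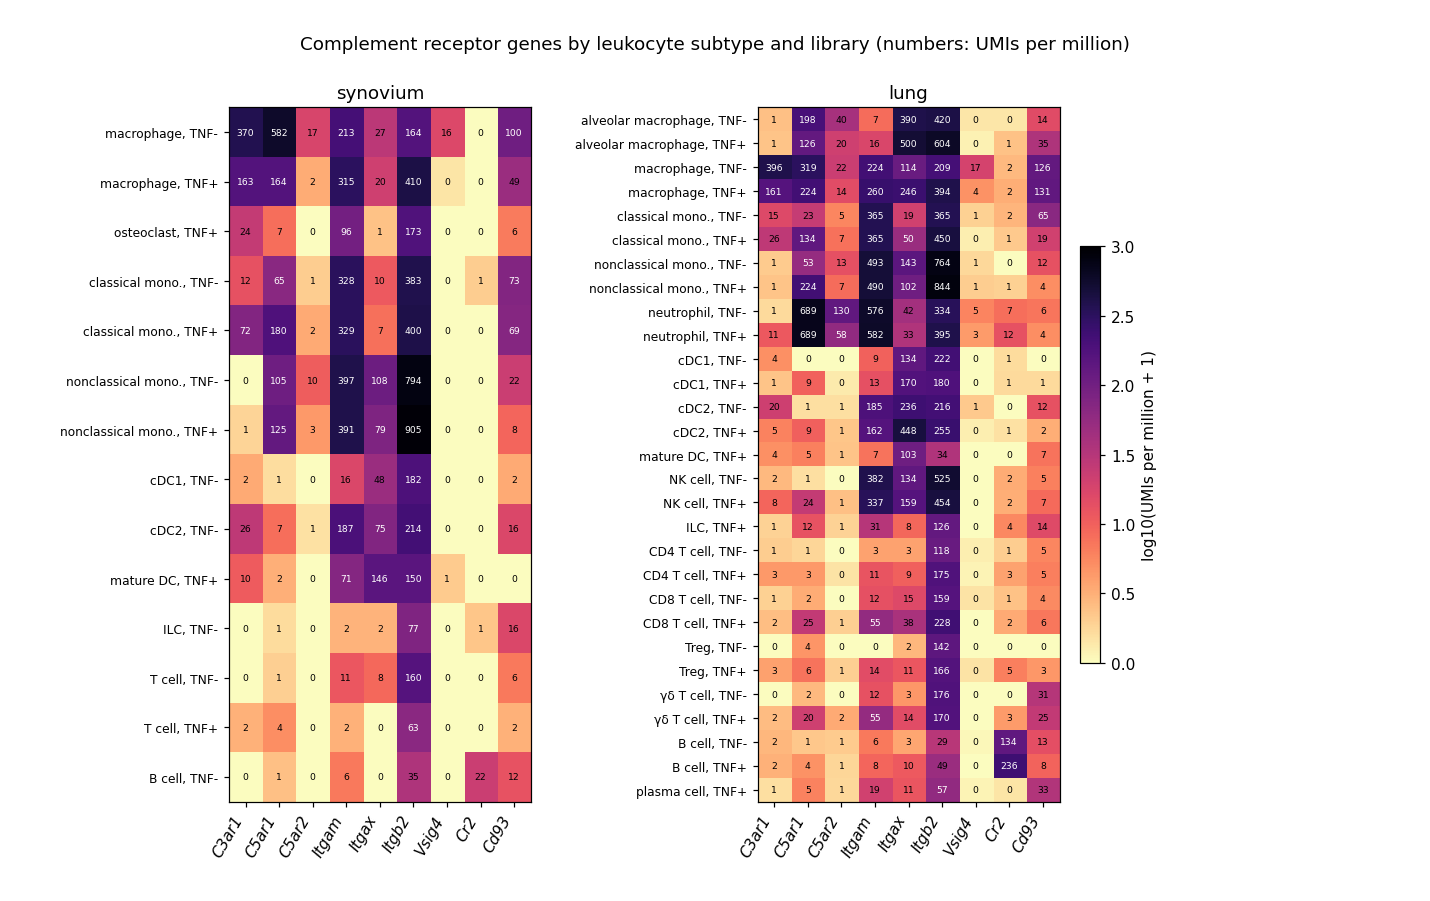
Level of each receptor gene in CPM (numbers in the cells, rounded; colour on a log10 scale of the level plus 1) in every leukocyte subtype with at least 50 cells in a library, synovium on the left and lung on the right. C3ar1 was darkest in the macrophages of both tissues (161 to 396), C5ar1 in lung neutrophils (689 in both libraries), Cr2 in lung B cells (134 and 236), and Itgb2 was above 0 in every subtype shown.

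C3ar1, the receptor for the fragment C3a, marked tissue macrophages of both organs. Over all cells of that name, its level was lower in TNF+ than in TNF- cells. In synovial macrophages it was at 370 CPM (330 to 414) in 66 TNF- cells and at 163 (156 to 171) in 645 TNF+ cells. In lung macrophages other than alveolar ones it was at 396 (360 to 434) in 75 TNF- cells and at 161 (155 to 167) in 717 TNF+ cells. The ranges of the genotypes did not overlap in either organ. Most macrophages of the genotypes lay in different clusters, however, so genotype and cluster cannot be told apart. In the synovial cluster that held both (58 TNF- and 38 TNF+ cells, described below) the levels were nearly equal. At a finer cluster resolution only 59 TNF- and 38 TNF+ synovial cells kept the macrophage name. The log2 ratio was -1.18 (-1.36 to -1.01) in the synovium and -1.30 (-1.44 to -1.15) in the lung. Over all genes counted in the same macrophages the median log2 ratio was -0.19 in the synovium and -0.14 in the lung. To compare cells at 1 depth, 1000 UMIs were drawn at random from each cell, which is called thinning here. The share of lung macrophages with a C3ar1 UMI was then 28.0% in TNF- and 14.9% in TNF+ cells, and without thinning it was 94.7% and 74.5%.

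Alveolar macrophages, the resident phagocytes of the air spaces, held almost no C3ar1. Their level was 1.5 CPM in the TNF- and 1.33 in the TNF+ lung. Lung lymphocytes, which should lack the receptor, were at 1.53 and 2.14, and lung endothelium at 1.73 and 1.87, so the alveolar level was no higher than this background. Nonclassical monocytes, which patrol the vessel wall, were in the same range, at 1.11 and 1.32 in the lung and at 0 and 0.827 in the synovium.

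Classical monocytes, the blood precursors of many tissue macrophages, had the opposite direction to macrophages. Synovial classical monocytes held 12 C3ar1 UMIs in 58 TNF- cells, a level of 12.3 (6.36 to 21.5), and 177 in 173 TNF+ cells, a level of 72.1 (61.9 to 83.5). The log2 ratio was 2.55 (1.71 to 3.53). Those cells came from different clusters, 58 of the TNF- cells from one and 172 of the TNF+ cells from another, so the genotype and the cluster cannot be told apart there. In lung classical monocytes the levels were 14.7 and 26.3, with a log2 ratio of 0.84 (0.30 to 1.42). Lung classical monocytes also fell into 2 main clusters. The one led by F13a1 and Vcan was at 5.65 (112 TNF- cells) and 0.601 (266 TNF+ cells), and the one led by Cxcl10 was at 62.4 (20 TNF- cells) and 46.8 (327 TNF+ cells). The higher value of TNF+ classical monocytes as a whole was thus seen in neither cluster.

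Among dendritic cells, cDC2 held some C3ar1. Lung cDC2 were at 20.3 in the TNF- and 5.08 in the TNF+ library, a log2 ratio of -2.0 (-2.69 to -1.30), and synovial cDC2 of the TNF- library were at 26.4 (22.4 to 30.9). Osteoclasts, the bone-resorbing cells of the macrophage lineage, were at 24.3 in the TNF+ synovium. Lung neutrophils held 1 C3ar1 UMI in 295 TNF- cells and 13 in 174 TNF+ cells, and the 13 UMIs lay in 4 cells.

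**Figure D2:**
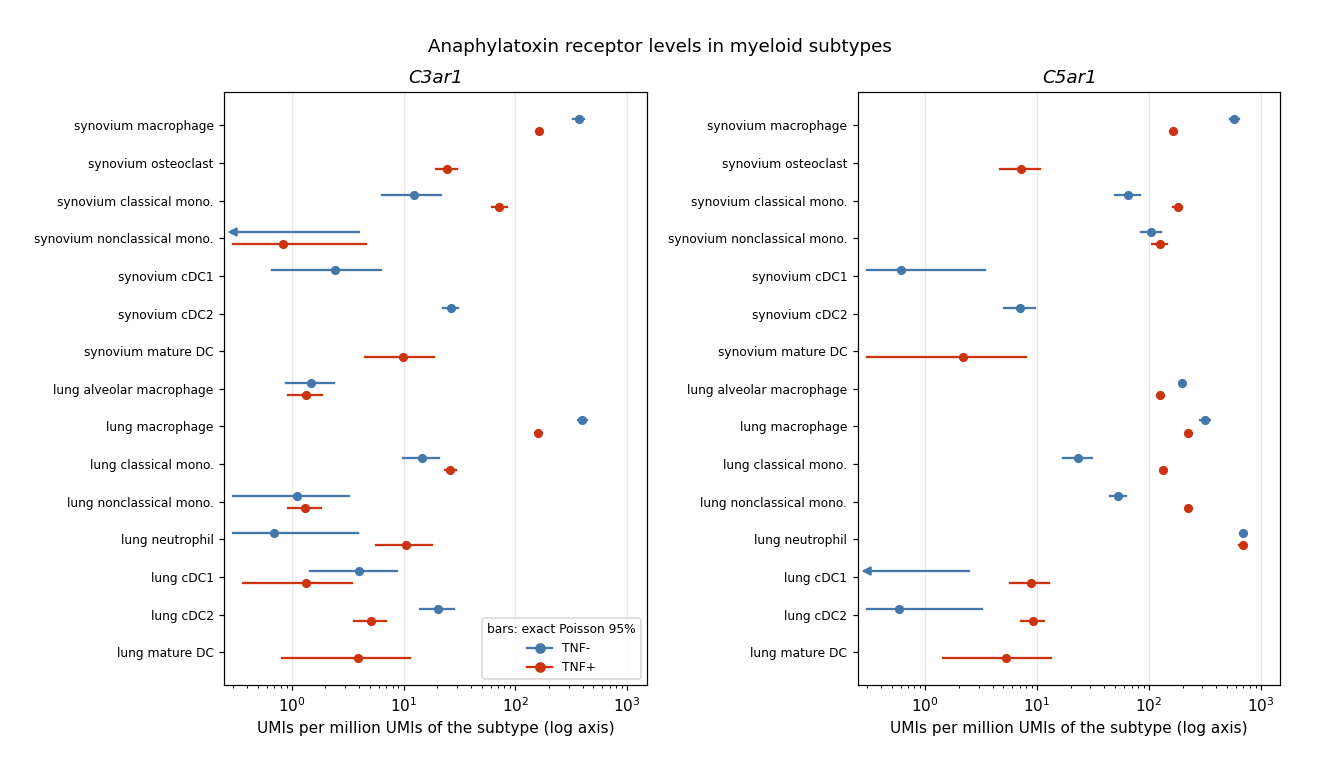
Level of C3ar1 (left) and C5ar1 (right) in CPM on a log axis, for each myeloid subtype with at least 50 cells in a library, TNF- in blue and TNF+ in red, with exact Poisson 95% bars; an arrow at the left edge marks 0 UMIs. C3ar1 was lower in TNF+ macrophages of both tissues (163 against 370 and 161 against 396), while C5ar1 was higher in TNF+ classical monocytes of both tissues and equal in lung neutrophils (689 and 689).

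C5ar1, the receptor through which C5a attracts and activates phagocytes, was spread over more subtypes than C3ar1. Lung neutrophils were at 689 (646 to 733) in 295 TNF- cells and at 689 (644 to 737) in 174 TNF+ cells. After thinning, 46.7% and 45.6% of them had a UMI, and without thinning 84.1% and 94.3%. The log2 ratio was 0.00 (-0.13 to 0.14), so the neutrophil level was nearly equal in the 2 libraries.

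Monocytes of the lung had more C5ar1 in the TNF+ library. Nonclassical monocytes were at 53.2 (44.9 to 62.7) in 294 TNF- cells and at 224 (219 to 230) in 2550 TNF+ cells, which is 4.22-fold, a log2 ratio of 2.08 (1.84 to 2.32). Classical monocytes were at 23.2 (17.2 to 30.7) in 132 TNF- cells and at 134 (127 to 141) in 593 TNF+ cells, which is 5.76-fold, a log2 ratio of 2.53 (2.12 to 2.97). The thinned share with a UMI went from 5.44% to 20.7% in nonclassical and from 3.03% to 14.8% in classical monocytes, and the unthinned share from 30.3% to 78.7% and from 18.9% to 73.0%. Over all genes the median log2 ratio was -0.06 in nonclassical and -0.03 in classical monocytes. Within the classical cluster led by F13a1 and Vcan, which held cells of both libraries, C5ar1 was at 22.0 and 115, a log2 ratio of 2.38 (1.91 to 2.89). Nonclassical monocytes split by genotype instead, with 277 TNF- cells in one cluster and 2537 TNF+ cells in another. In the TNF+ cluster the 17 TNF- cells were at 39.1, and in the TNF- cluster the 13 TNF+ cells were at 170.

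Tissue macrophages went the other way. Lung macrophages were at 319 (287 to 353) in TNF- and 224 (218 to 231) in TNF+ cells, a log2 ratio of -0.51 (-0.66 to -0.35). Counted as UMIs per cell that ratio was 0.35, and TNF+ lung macrophages had a median of 27018 UMIs of all genes against 14894. Alveolar macrophages were at 198 (190 to 206) and 126 (122 to 131), a log2 ratio of -0.65 (-0.73 to -0.57). Most alveolar macrophages lay in clusters of 1 genotype, 397 TNF- cells in one and 590 TNF+ cells in another. The 16 TNF- cells of the TNF+ cluster were at 60.3, and another cluster, led by genes of cell division, was at 147 in 28 TNF- and 85.3 in 36 TNF+ cells. The order of the lung subtypes therefore differed. In the TNF- lung it ran from neutrophils through macrophages, alveolar macrophages and nonclassical monocytes to classical monocytes, with no overlap between neighbours. In the TNF+ lung neutrophils came first, nonclassical monocytes and macrophages shared the next place with overlapping intervals, and classical monocytes and alveolar macrophages shared the last. For the lung myeloid class as a whole the level was 171 in TNF- and 168 in TNF+ cells, a log2 ratio of -0.03 (-0.08 to 0.03), although 3 of its 6 subtypes with a ratio had an interval above 0 and 2 an interval below it.

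Synovial macrophages also had less C5ar1 in the TNF+ library, at 582 (531 to 636) in TNF- and 164 (156 to 171) in TNF+ cells. The log2 ratio was -1.83 (-1.97 to -1.68), with thinned shares of 31.8% and 14.9% and unthinned shares of 86.4% and 75.7%. Synovial classical monocytes were at 64.6 (49.7 to 82.7) and 180 (164 to 198), a log2 ratio of 1.48 (1.10 to 1.89), again with the TNF- and the TNF+ cells in different clusters. Synovial nonclassical monocytes, which formed 1 cluster, were at 105 and 125, and the interval of the log2 ratio held 0 (0.26, -0.12 to 0.64). Synovial neutrophils numbered 25 TNF- and 23 TNF+ cells, under the limit of 50, and were at 640 and 477.

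C5ar1 outside phagocytes was low and higher in TNF+ lung cells of many kinds. Lung lymphocytes were at 1.53 in the TNF- and 9.06 in the TNF+ library, with CD8 T cells at 2.34 and 24.7 and NK cells at 0.575 (1 UMI) and 23.9 (32 UMIs). After thinning, 0.0801% and 0.540% of lymphocytes had a UMI, against 1.12% and 5.23% without thinning. Endothelium, which should hold little of this receptor, was at 2.51 and 12.4, with 0.246% and 1.63% of thinned cells at a median depth of 7017 and 1062 UMIs. Epithelium was at 1.03 and 8.41. The lymphocyte share was below the endothelial share in both libraries, and it is not read as expression here. TNF+ endothelium was shallower than TNF+ lymphocytes (median 8685.5 UMIs), so this comparison cannot decide whether lymphocytes express the gene. By level, TNF+ CD8 T cells (20.9 to 29.1) and NK cells (16.4 to 33.8) were above endothelium (9.29 to 16.2). By thinned share they were not, with a UMI in 7 of 492 TNF+ CD8 T cells and 2 of 135 TNF+ NK cells. With the highest doublet scores removed, the log2 ratio of CD8 T cells was 1.5 in place of 3.40. The part of free RNA and of doublets in these values was not tested.

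C5ar2, the other C5a receptor, which does not couple to G proteins, was highest in lung neutrophils and lower there in TNF+ cells. It was at 130 (112 to 150) in TNF- and 57.7 (45.1 to 72.8) in TNF+ neutrophils, a log2 ratio of -1.17 (-1.59 to -0.77). Neutrophil C5ar1 was equal between the libraries, so the share of C5ar2 among the UMIs of both C5a receptors was 15.9% (13.8 to 18.1) in TNF- and 7.73% (6.08 to 9.65) in TNF+ neutrophils. In alveolar macrophages C5ar2 was at 39.7 and 19.6, a log2 ratio of -1.02 (-1.21 to -0.84). Nonclassical monocytes were at 12.6 and 7.37, a log2 ratio of -0.77 (-1.30 to -0.20). In these monocytes C5ar1 was higher in the TNF+ library and C5ar2 lower, and the C5ar2 share of their UMIs was 19.1% and 3.18%. Lung macrophages were at 21.8 and 13.7, a log2 ratio of -0.68 (-1.27 to -0.02) that was 0.18 as UMIs per cell. Lung classical monocytes were at 4.74 and 6.77 with an interval that held 0 (0.51, -0.44 to 1.63). In synovial macrophages 14 UMIs in TNF- and 26 in TNF+ cells gave 16.7 and 2.32, a log2 ratio of -2.85 (-3.84 to -1.80). Over the lung myeloid class the C5ar2 share was 15.7% (14.7 to 16.8) in TNF- and 6.45% (6.09 to 6.83) in TNF+ cells. Lung epithelium held 10.4% of the C5ar2 UMIs of the TNF- library and 4.67% of those of the TNF+ library, at 7.0 and 6.18 CPM, so this receptor was less restricted to leukocytes than C5ar1.

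Itgam encodes CD11b, the alpha chain of complement receptor 3 (CR3), which with the beta chain CD18 binds iC3b on opsonised particles. Its level separated subtypes widely and differed little by genotype within monocytes and neutrophils. Lung neutrophils were at 576 in TNF- and 582 in TNF+ cells, with a log2 ratio of 0.02 (-0.13 to 0.16). Lung nonclassical monocytes were at 493 and 490, with a log2 ratio of -0.01 (-0.09 to 0.07), and lung classical monocytes at 365 and 365, with 0.00 (-0.11 to 0.11). Synovial classical monocytes (328 and 329, log2 ratio 0.00, -0.19 to 0.19) and nonclassical monocytes (397 and 391, log2 ratio -0.02, -0.22 to 0.18) were as close. Counting error alone allows a log2 difference of at most 0.22 in size in these 5 comparisons. Nonclassical monocytes of the lung thus had a near-equal Itgam level in the same cells in which C5ar1 was 4.22-fold apart.

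Taken as a whole, macrophages had more Itgam in the TNF+ libraries. In the synovium they were at 213 in TNF- and 315 in TNF+ cells, with a log2 ratio of 0.57 (0.35 to 0.79), and in the lung at 224 and 260, with 0.22 (0.04 to 0.41). At a finer cluster resolution the lung value was -0.14. Most synovial macrophages of the genotypes lay in different clusters, and the difference was not seen in the cluster that both shared (described below). Alveolar macrophages, known for low CD11b, were at 7.32 and 16.1, with a log2 ratio of 1.14 (0.80 to 1.49). Lung endothelium (5.13 and 20.4) and epithelium (1.47 and 16.3) were higher in the TNF+ library too, and the part of free RNA in the alveolar value was not tested.

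NK cells were the lymphocytes with the most Itgam, at 382 in the TNF- and 337 in the TNF+ lung, with a log2 ratio of -0.18 (-0.36 to -0.01). After thinning, 31.5% and 26.7% of NK cells had a UMI. Their level lay close to that of classical monocytes, so Itgam alone did not separate myeloid cells from lymphocytes in the lung. Lymphocytes held 17.7% of the Itgam UMIs of the TNF- lung and 4.36% of those of the TNF+ lung, where myeloid cells made up more of the library. CD8 T cells were at 12.4 and 54.9 and γδ T cells at 12.1 and 54.5. The CD8 log2 ratio of 2.15 was -0.32 with the highest doublet scores removed, so its direction rested on those cells.

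**Figure D3:**
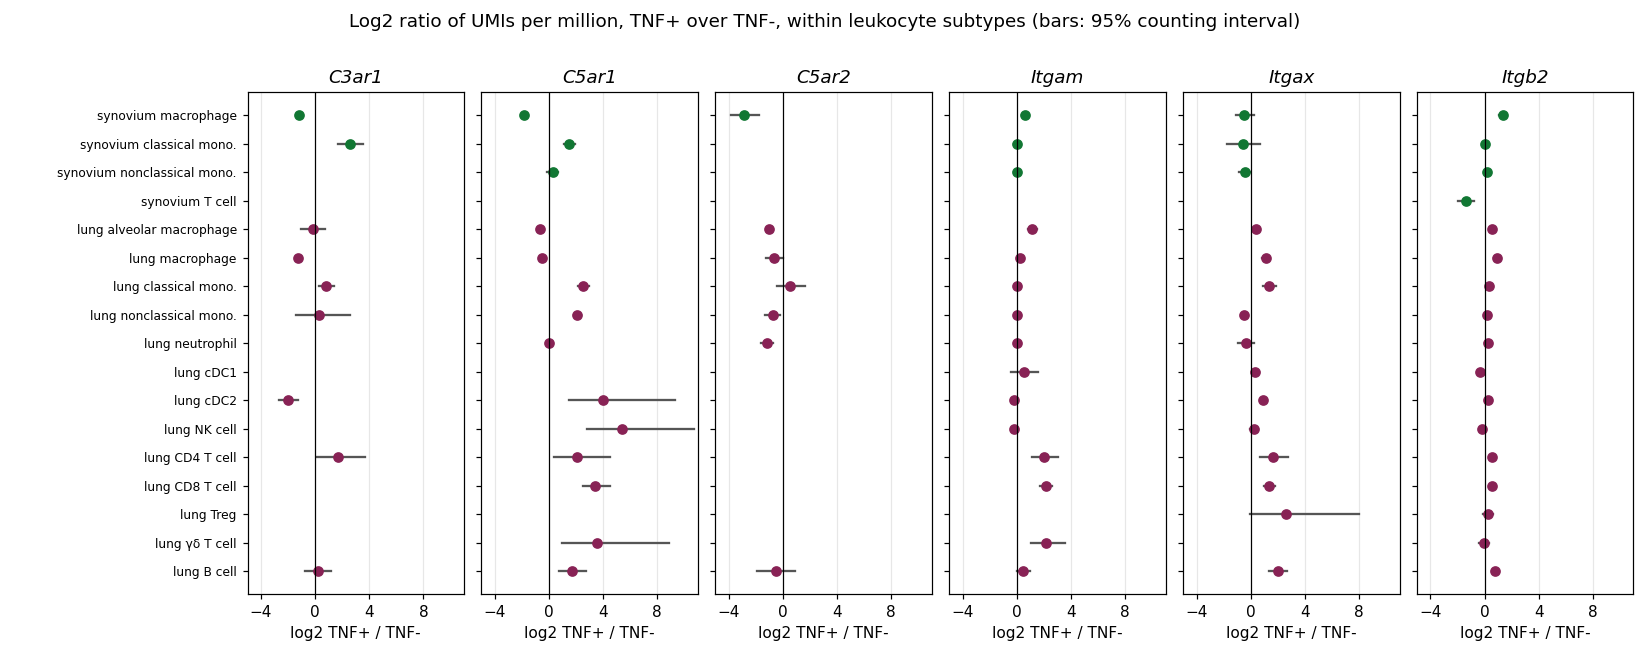
Log2 ratio of CPM, TNF+ over TNF-, for 6 receptor genes within each leukocyte subtype with at least 50 cells in both libraries, synovium in green and lung in purple, with 95% counting intervals and a line at 0. C5ar1 points lie on both sides of 0 (from -1.83 in synovial macrophages to 2.53 in lung classical monocytes among monocytes and macrophages), and the Itgam points of neutrophils and monocytes lie at 0.

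Itgax encodes CD11c, the alpha chain of complement receptor 4 (CR4) and a common marker of dendritic cells and alveolar macrophages. Alveolar macrophages were at 390 in TNF- and 500 in TNF+ cells, with a log2 ratio of 0.36 (0.31 to 0.41). Lung cDC2 were at 236 and 448, with 0.92 (0.77 to 1.07), and type 1 conventional dendritic cells (cDC1) at 134 and 170, with 0.35. Dendritic cells and alveolar macrophages of the TNF+ lung thus held more of the CR4 alpha chain. The thinned share of cDC2 with an Itgax UMI was 11.4% and 34.5%. Lung macrophages were at 114 and 246, with a log2 ratio of 1.11 (0.86 to 1.37), which was -0.15 when cells with over 5000 detected genes were left out. Lung classical monocytes were at 19.5 and 50.2, with a log2 ratio of 1.37 (0.91 to 1.86).

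Nonclassical monocytes had less Itgax in the TNF+ libraries of both tissues. They were at 143 and 102 in the lung, with a log2 ratio of -0.49 (-0.64 to -0.33), and at 108 and 78.6 in the synovium, with -0.46 (-0.88 to -0.04). Over the lung myeloid class the values were 255 and 256, with a log2 ratio of 0.01 (-0.03 to 0.05), and over the synovial class 60.9 and 25, with -1.28 (-1.45 to -1.12). In the synovium the 3 subtypes with a ratio lay between -0.57 and -0.46, so the class difference was larger than that of any of them. The class also held 298 cDC2 in the TNF- and 17 in the TNF+ library, and the TNF- cDC2 were at 75.4.

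The balance of the alpha chains shifted by subtype. Of the Itgam and Itgax UMIs together, Itgam held 94.9% in TNF- and 87.9% in TNF+ lung classical monocytes, 77.5% and 82.8% in nonclassical monocytes, 66.1% and 51.4% in macrophages, 43.9% and 26.6% in cDC2 and 1.84% and 3.12% in alveolar macrophages. Classical monocytes, macrophages and cDC2 of the TNF+ lung thus leaned more to Itgax, and nonclassical monocytes less.

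Itgb2 encodes CD18, the beta chain that CR3, CR4 and the integrin LFA-1 share. Its UMIs were found in every leukocyte subtype with at least 50 cells. In mature dendritic cells of the TNF+ lung the level of 34.1 (22.3 to 49.9) was no higher than that of lung endothelium (36.0). After thinning, 0 of 44 of these dendritic cells had a UMI. Nonclassical monocytes were at 764 in TNF- and 844 in TNF+ cells of the lung, with a log2 ratio of 0.14 (0.08 to 0.21), and at 794 and 905 in the synovium, with 0.19 (0.05 to 0.33), which turned to -0.50 as UMIs per cell. Lung classical monocytes were at 365 and 450, with 0.30, and neutrophils at 334 and 395, with 0.24. Macrophages differed more. Synovial macrophages were at 164 and 410, with a log2 ratio of 1.33 (1.08 to 1.58), lung macrophages at 209 and 394, with 0.91 (0.73 to 1.11), and alveolar macrophages at 420 and 604, with 0.52. Taken as a whole, synovial macrophages thus had more CD18 RNA in TNF+ cells and less RNA of both anaphylatoxin receptors. The genotypes lay mostly in different clusters, and for C3ar1 the difference was not seen in the cluster that both shared.

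In T cells Itgb2 had opposite directions in the 2 tissues, a difference that was not tested. Synovial T cells were at 160 (164 UMIs in 87 cells) in the TNF- and 62.9 (31 UMIs in 87 cells) in the TNF+ library, with a log2 ratio of -1.35 (-1.95 to -0.79). With each library clustered by itself that ratio was -0.65. Lung CD4 T cells were at 118 and 175, with 0.57, and CD8 T cells at 159 and 228, with 0.52. Within the larger T cell clusters those differences were smaller, from -0.09 to 0.16. B cells were at 29.3 and 48.9, with 0.74 (0.53 to 0.95). Itgb2 was also higher in TNF+ lung endothelium (12.3 and 36.0) and epithelium (5.46 and 34.8). The part of free RNA in the B cell value was not tested.

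**Figure D4:**
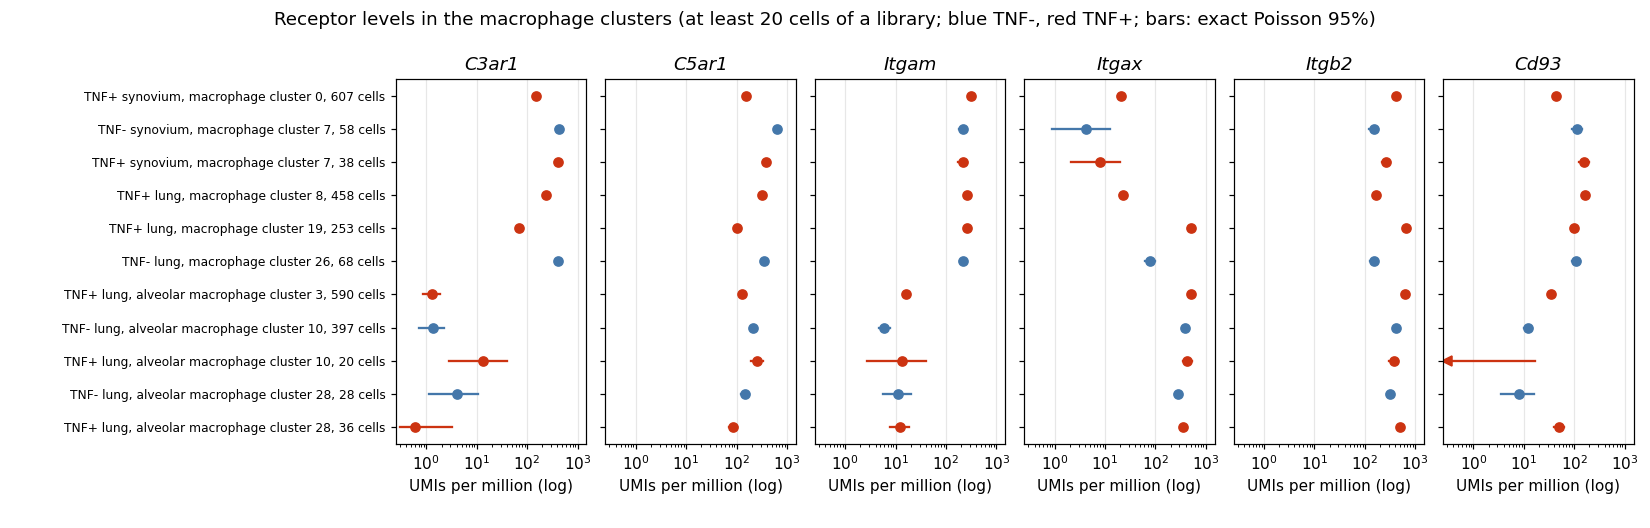
Level of 6 receptor genes in CPM on a log axis in each macrophage cluster with at least 20 cells of a library, TNF- in blue and TNF+ in red, with exact Poisson 95% bars; the arrow marks 0 UMIs. In synovial cluster 7, which held both genotypes, C3ar1 was at 420 and 411, and the lung clusters 8 and 19 of the TNF+ library lay on either side of each other for C3ar1 (237 and 69.0) and Itgax (22.6 and 508).

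Receptor levels also differed between macrophage clusters. One synovial cluster, led by Ccl12, Lyve1 and Folr2, held 58 TNF- and 38 TNF+ cells. C3ar1 there was at 420 in TNF- and 411 in TNF+ cells and Itgam at 214 and 214, while C5ar1 was at 631 and 386 and Itgb2 at 150 and 265. Most TNF+ synovial macrophages, 607 of 645, lay in another cluster, led by Cxcl1, Cav1 and Lyz1, with 8 TNF- cells. Its TNF+ cells were at 151 for C3ar1, 153 for C5ar1, 320 for Itgam and 417 for Itgb2. For C3ar1 and Itgam the genotype difference in synovial macrophages was thus not seen inside the cluster that both libraries shared, and for C5ar1 and Itgb2 it was, at a smaller size. In the lung the TNF- macrophages lay mostly in a cluster led by F13a1, Cd163 and Lyve1 (68 cells), with C3ar1 at 414, C5ar1 at 350 and Itgax at 78.3. TNF+ lung macrophages formed 2 others. The one led by St18, Stab1 and C1qc (458 cells) was at 237 for C3ar1, 327 for C5ar1, 22.6 for Itgax and 168 for Itgb2. The one led by Mmp12, Gpnmb and Trem2 (253 cells) was at 69.0 for C3ar1, 101 for C5ar1, 508 for Itgax and 657 for Itgb2. The anaphylatoxin receptors and the CR4 chains were thus highest in different clusters of the TNF+ lung macrophages. Since each of these clusters came almost wholly from 1 library, the genotype, the library and the cluster cannot be told apart. As UMIs per cell the log2 ratios of lung macrophages were -0.44 for C3ar1, 1.08 for Itgam, 1.96 for Itgax and 1.77 for Itgb2.

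Itgax and Itgb2 were also counted in the same cells. After thinning, 42 of 716 TNF+ lung macrophages had a UMI of both chains, where the product of the separate shares gives 22.4. In TNF+ nonclassical monocytes Itgam and Itgb2 were found together in 515 of 2550 cells, against 507 from the product, and C5ar1 and Itgam in 188, against 191. C3ar1 and C5ar1 were together in 31 TNF+ lung macrophages, against 19.7. Other macrophage pairs were near the product, with Itgam and Itgb2 in 39 cells against 36.5 and Itgam and Itgax in 19 against 20.1. In TNF+ classical monocytes of the lung Itgax and Itgb2 were together in 15 of 593 cells, against 10.2. Of these pairs, Itgax with Itgb2 and C3ar1 with C5ar1 in macrophages lay farthest above the product. The product takes the cells of a subtype as a single population. These macrophages came from the clusters described above, which differed in the levels of these genes. Pooling such clusters can by itself give counts above the product, so the excess is not read as pairing within cells. Pairs were not counted within clusters.

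Vsig4, the receptor CRIg of resident macrophages that binds C3b and iC3b, was rare, with 9 to 126 UMIs in a library. Lung macrophages held 20 UMIs in 6 of 75 TNF- cells, a level of 17.5 (10.7 to 27.0), and 75 UMIs in 4 of 717 TNF+ cells, a level of 3.79 (2.98 to 4.74). The log2 ratio was -2.21 (-2.93 to -1.42), and with cells weighted equally it was -3.09. This interval treats each UMI as a separate count, although the UMIs lay in these few cells, so it leaves out which cells were captured. Synovial macrophages held 13 UMIs in 2 of 66 TNF- cells and 5 UMIs in 1 of 645 TNF+ cells, too few for a ratio. Macrophages thus held 20 of the 44 Vsig4 UMIs of the TNF- lung and 75 of the 126 of the TNF+ lung, in few cells. Nonclassical monocytes of the lung held 2 and 29 UMIs, at 0.739 and 1.06, and neutrophils 7 and 4, at 4.90 and 3.25.

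Cr2 encodes complement receptors 1 and 2 of the mouse, which on B cells bind C3d and lower the threshold for activation by antigen. Lung B cells were at 134 (127 to 141) in 1273 TNF- cells and at 236 (227 to 245) in 1411 TNF+ cells. The log2 ratio was 0.82 (0.72 to 0.92), against a median over all genes of -0.03 in B cells. After thinning, 11.3% and 18.6% of B cells had a UMI, and without thinning 46.3% and 56.9%. The difference was present in each of the 3 larger B cell clusters, at 147 and 275 (log2 ratio 0.91, 0.80 to 1.01), 83.0 and 165 (0.99), and 163 and 309 (0.93), and a smaller one was at 37.7 and 56.6 with an interval that held 0 (0.58, -0.25 to 1.42). Higher Cr2 in TNF+ lung B cells was thus seen in clusters that both libraries shared. Lymphocytes held 88.2% of the Cr2 UMIs of the TNF- lung and 86.6% of those of the TNF+ lung. Lung neutrophils were at 7.0 and 12.2 (10 and 15 UMIs). Synovial B cells of the TNF- library were at 21.8 (12.2 to 36.0), from 15 UMIs in 10 of 58 cells, and the 34 B cells of the TNF+ synovium were under the limit of 50.

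Cd93, first described as a receptor for C1q on phagocytes and now known mainly as an adhesion molecule, was foremost an endothelial gene here. Endothelium held 88.4% of its UMIs in the TNF- lung and 47.3% in the TNF+ lung, and 79.2% and 67.3% in the synovium. Lung endothelium was at 1001 and 950. Among leukocytes, lung macrophages were at 126 and 131, with a log2 ratio of 0.05 (-0.19 to 0.31), and synovial macrophages at 100 and 49.0, with -1.03 (-1.37 to -0.69). Monocytes of the lung had less Cd93 in the TNF+ library. Classical monocytes were at 65.0 and 19.4, with a log2 ratio of -1.74 (-2.06 to -1.42), and within their cluster led by F13a1 and Vcan at 69.4 and 21.3. Nonclassical monocytes were at 12.2 and 4.11, with -1.57, and those of the synovium at 21.6 and 8.27, with -1.38. Synovial classical monocytes were at 72.8 and 69.2, with -0.07. Alveolar macrophages had more Cd93 in the TNF+ library, at 14.1 and 35.1, with a log2 ratio of 1.32 (1.08 to 1.57), and the 16 TNF- cells of their TNF+ cluster were at 60.3.

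**Figure D5:**
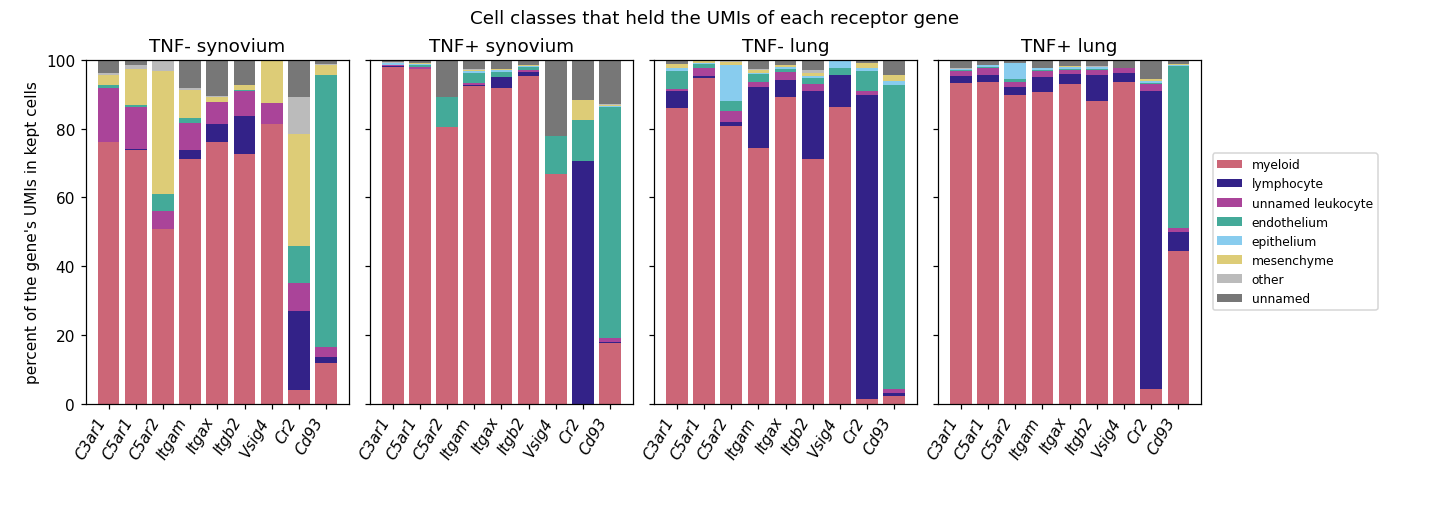
Percent of each receptor gene's UMIs held by each cell class (stacked colours), one panel for each library. Myeloid cells held most UMIs of C3ar1, C5ar1, Itgam, Itgax and Itgb2 in all 4 libraries, lymphocytes held most of Cr2 in the lung, and endothelium held 47.3% to 88.4% of Cd93; the Vsig4 bar of the TNF+ synovium rests on 9 UMIs.

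Most UMIs of the anaphylatoxin receptors lay in myeloid cells. For C3ar1 the myeloid share was 76.0% in the TNF- and 98.0% in the TNF+ synovium, and in the lung 86% and 93.3%. Another 15.7% of the TNF- synovial C3ar1 UMIs lay in leukocytes that were left unnamed. For C5ar1 the myeloid share was 73.8% and 97.3% in synovial and 94.6% and 93.6% in lung libraries.

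Read over the whole myeloid class, few receptors differed by 2-fold or more. In the synovium, 11.1% of 13311 genes with at least 20 UMIs were at least 2-fold higher in the TNF+ library and 19.2% at least 2-fold lower. Of the 9 receptors 7 had 20 UMIs there, and 1 was higher (C3ar1, 42.5 and 106, log2 ratio 1.32) and 1 lower (Itgax). In the lung, 5.02% of 17085 genes were at least 2-fold higher and 15.8% at least 2-fold lower. All 9 receptors had 20 UMIs there, with 0 higher and 1 lower (C5ar2, 31.8 and 11.6, log2 ratio -1.46). The median log2 ratio of the receptors was 0.53 in the synovium and 0.48 in the lung, and that of all genes -0.10 and -0.17. The class value of C3ar1 and its value in macrophages had opposite directions. Over the class C3ar1 was higher in TNF+ cells (lung 25 and 37.7, log2 ratio 0.59), while in macrophages it was lower and macrophages made up more of the class. The lung class ratio of C3ar1 turned to -0.82 with at most 5000 detected genes and to -0.0089 with cells weighted equally. Within subtypes, synovial macrophages had 1 of 7 receptors at least 2-fold higher and 4 lower, against 10.5% and 20.2% of all genes. Lung CD4 T cells had 5 of 7 at least 2-fold higher, against 7.45% of all genes, at no more than 11.5 CPM in TNF+ cells. Of these 5, C5ar1, Itgam, Itgax and Cr2 (3.31, 11.5, 8.98 and 2.83) were below TNF+ lung endothelium (12.4, 20.4, 22.0 and 3.28). C3ar1 was at 3.31 against 1.87, from 21 UMIs in the T cells and 8 in endothelium, with overlapping intervals. The part of free RNA in these values was not tested.

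Other complement genes were counted over the myeloid class from lists of soluble components, regulators and partners of the receptors. Of 21 soluble components 12 had 20 UMIs in the synovium, with 3 at least 2-fold higher and 3 lower in the TNF+ library. C3, the central component and the source of C3a, was at 47.2 and 216 there, and Cfb, the protease of the alternative pathway, at 3.31 and 20.2. Fcnb, a ficolin made by immature myeloid cells, was at 10.3 and 0.201, and C4b, a component of the classical pathway, had a log2 ratio of -1.67. In the lung 16 had 20 UMIs, with 8 higher and 3 lower. C3 was at 73.5 and 560, C1qa, a chain of C1q, at 232 and 950, Cfb at 58.1 and 230.4, and C4b at 10.2 and 1.52. C3, the source of the C3ar1 ligand, was thus higher over the TNF+ myeloid class as a whole in both tissues. The genes of these lists were not read within subtypes. The subtypes that made up the class differed between libraries, and their part in these values was not tested.

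Of 13 regulators, 8 in the synovium had 20 UMIs, with 2 higher and 4 lower. Cd59a, which blocks the membrane attack complex, and Clu, a soluble inhibitor of it, had log2 ratios of 4.14 and 3.79. Serping1, the C1 inhibitor, had -2.10. In the lung 9 had 20 UMIs, with 2 higher and 2 lower, led by Cd59b (-1.85), Cd55, which speeds the decay of convertases (1.73), Clu (-1.51) and Cd59a (1.22). Clu thus had opposite directions in the 2 tissues.

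Of 18 partners, 15 in the synovium had 20 UMIs, with 0 higher and 3 lower, and the largest ratios were those of the integrin chains Itgae (-2.91) and Itgal (-1.05), the integrin ligand Icam1 (203 and 97.1, -1.07) and the tetraspanin Cd81 (-0.91). In the lung all 18 had 20 UMIs, with 0 higher and 4 lower, namely Itgad (-2.80), Ifitm1 (200.3 and 44.4, -2.17), Itgae (-1.72) and Mmrn2 (-1.13). Of all genes, 19.2% in the synovium and 15.8% in the lung were at least 2-fold lower, so the partner counts lie near these shares. Itgal is also a marker used to name nonclassical monocytes and Itgae one of cDC1. The share of those cells in the class differed between libraries. Its part in these values was not tested.

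Genes with the most similar profile were found over 43 subtype profiles of the 4 libraries, by Pearson's r of log2 of CPM with 1 added, among 13927 genes. These profiles share libraries, cells of one class and the scaling of each profile to CPM. The nearest genes to C5ar1 were Sgms2 (0.886), C5ar2 (0.882) and Mpp1 (0.873), so its neighbour on the chromosome was also among the nearest in profile. C5ar2 had C5ar1, P2ry13 (0.861) and Siglece (0.859). For C3ar1 they were Pdgfa (0.844), Prxl2b (0.835) and St18 (0.823), for Itgam Fcer1g (0.883) and Emilin2 (0.858), and for Itgax Gm43111 (0.840), Afdn (0.835) and Cdk14 (0.828). Gm43111 is annotated within Cdk14 on the same strand, so their UMIs may not be separate. Itgb2 was nearest to Ptpre (0.891), Myo1f (0.865) and Apobr (0.846). Cr2 had Il12a (0.934) and Pik3c2b (0.887), and Cd93, whose main source is not a leukocyte, had lower values, with Rhob (0.708), Cdk20 (0.703) and Apoe (0.697). Vsig4 had under 200 leukocyte UMIs and was left out.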

How the data were processed

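RNA of single cells from lung and synovium was read by 10x Genomics 3′ libraries. The authors deposited raw UMI counts, made with Cell Ranger 7.0.1 per the submitters' processing notes on the mouse build mm10 (GRCm38); that version counts intronic reads by default. No deposited file assigns cells to types, and 0 further columns of per-sample values were found.

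Cells were kept with at least 200 detected genes and at most 20% mitochondrial UMIs, with no upper limit on genes. This kept 6620 of 6899 barcodes (TNF- synovium), 3498 of 4246 (TNF+ synovium), 8296 of 8555 (TNF- lung) and 11083 of 11243 (TNF+ lung). Doublets were not removed. In an alternative, the highest Scrublet scores (scanpy 1.11.5) were removed, 0.8% per 1000 barcodes. The libraries of a tissue were clustered together in 2 rounds at resolution 0.8 (scikit-learn 1.9.0, leidenalg 0.10.2). This used 2000 variable genes without the receptors, the complement lists and mitochondrial genes, 30 components and 20 neighbours. A name needed 3 markers at 2-fold in at least 10% of cells and a minimum share of the markers listed for a type. Where that share was weak, the type of the same lineage with the most markers in the top 10 genes was taken. A second-round cluster without a candidate could keep its first-round name. A cluster stayed unnamed if markers of another class led its top 10 genes or if it was shallow. Leukocytes left unnamed came to 83, 13, 113 and 1106 cells in the same order of libraries. The myeloid class holds neutrophils, monocytes, macrophages, osteoclasts, dendritic cells and mast cells or basophils, and the lymphocyte class T, B, plasma, NK and innate lymphoid cells. These naming thresholds were revised after clusters and receptor sums had been seen. The receptors, markers and lists were chosen with earlier results of these data known.

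Levels carry exact Poisson, shares exact binomial (Clopper-Pearson) and ratios conditional binomial 95% intervals (SciPy 1.17.1). A ratio against 0 UMIs used a floor of 3 UMIs. With 1 library per group no test was run. The interval code was tested on simulated data. Named genes were the receptors in every subtype with at least 50 cells, the 4 list genes with the largest ratio per tissue, and the 3 most similar profiles. Some genes that this rule names are not reported here. Leaving out a replicate was not possible.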

Additional observations from a re-analysis of the deposited data

Results flagged for a closer look

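Receptor UMIs also appeared in cell classes outside the leukocytes, and several were at least 2-fold higher in the TNF+ library with an interval away from 0. No cause was tested, and none of these ratios has a replicate check. In lung endothelium (2171 TNF- and 481 TNF+ cells, median depth 7017 and 1062 UMIs) the log2 ratio was 2.30 for C5ar1, 1.99 for Itgam, 2.92 for Itgax and 1.55 for Itgb2. In lung epithelium (484 and 342 cells, 27046 and 30382 UMIs) it was 3.03 for C5ar1, 3.47 for Itgam, 2.58 for Itgax, 2.67 for Itgb2 and 1.27 for Cr2. Lung mesenchyme (582 and 178 cells, 14747.5 and 1074 UMIs) had 1.36 for Itgam, 2.84 for Itgax, 1.67 for Itgb2 and 1.90 for Cr2. The levels in the TNF+ lung stayed between 2.13 and 38.1 CPM in these classes. With cells weighted equally the Cr2 ratios were 0.18 in epithelium and 0.74 in mesenchyme, under 2-fold. As UMIs per cell, those of mesenchyme were 0.61 for Itgam and 0.93 for Itgb2.

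In the synovium, endothelium (723 and 586 cells) had a log2 ratio of 1.53 for Itgam and 2.35 for Itgb2. Mesenchyme (3823 and 361 cells, 15302 and 7330 UMIs) had 1.09 for Itgam and 2.06 for Itgb2. Itgam there was 0.27 as UMIs per cell, and Itgb2 0.87 with cells weighted equally.

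A pair of results had opposite directions in the tissues. Cd93 in mesenchyme was at 1.18 and 7.05 CPM in the synovium, a log2 ratio of 2.58, and at 39.5 and 7.84 in the lung, a log2 ratio of -2.33. With cells weighted equally these were 2.56 and 1.56, so the lung direction turned and the tissues no longer differed in direction. Itgb2 in lymphocytes had a log2 ratio of -0.73 in the synovium and 0.15 in the lung. The difference between tissues was not tested.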

How the results depend on the processing

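No paired analysis was possible because each group is 1 library, and no replicate could be left out. Limits of 500 genes and 10% mitochondrial UMIs, and removal of the highest Scrublet scores, moved none of the 16 ratios over the myeloid class beyond their counting interval. The other alternatives moved them as log2 ratios, TNF+ over TNF-.

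With at most 5000 detected genes, C3ar1 in the lung was -0.82 and Cd93 -0.47, both reversed, C5ar1 was 0.21, Itgam 0.33, Itgax -0.29 and Itgb2 0.56, and in the synovium Itgam was 0.58 and Itgax -1.05. With cells weighted equally, C3ar1 was -0.0089 in the lung, reversed, and 0.87 in the synovium, C5ar1 -0.29 and 0.37, Itgam 0.30 in the lung, Itgax -0.093 and -0.95, and Itgb2 0.53 in the lung. As UMIs per cell, the lung gave 0.77 for C3ar1, 0.15 for C5ar1, 0.91 for Itgam, 0.18 for Itgax and 0.65 for Itgb2, and the synovium 0.38 for Itgam and 0.43 for Itgb2. Median-of-ratios scaling gave 0.83 in the lung and 1.52 in the synovium for C3ar1, 0.21 and 1.03 for C5ar1, 0.98 and 0.70 for Itgam, 0.25 and -1.08 for Itgax, and 0.72 and 0.74 for Itgb2. At resolution 1.6, with 570 and 750 synovial myeloid cells, C3ar1 was 0.77, C5ar1 0.40, Itgam 0.26, Itgax -0.93 and Itgb2 0.33. With each library clustered by itself, with 561 and 543 such cells, they were 1.65, 1.53, 0.13, -1.0 and 0.36. Adding the unnamed leukocytes, chosen after the data were seen, gave 0.61 for Itgam and 0.66 for Itgb2 in the synovium.

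Within subtypes, 97 ratios were computed. Of those that could be recomputed, 83 of 90 moved by less than their counting interval at resolution 1.6, 62 of 86 with separate clustering, 84 of 93 without the highest Scrublet scores, 67 of 82 with at most 5000 genes, 76 of 97 with the other scaling and 60 of 97 as UMIs per cell. The synovial macrophage ratios could not be recomputed in all settings, since 59 and 38 cells kept the name at resolution 1.6 and 0 and 50 with separate clustering. Reversed values were those of Itgax (-0.15 with at most 5000 genes) and Itgam (-0.14 at resolution 1.6) in lung macrophages, C5ar1 (0.35) and C5ar2 (0.18) there as UMIs per cell, Itgb2 in synovial nonclassical monocytes as UMIs per cell (-0.50), C3ar1 in lung classical monocytes (-4.18) and Itgam in lung cDC2 (0.14) with separate clustering, and Itgam in CD8 T cells (-0.32) and Cr2 in alveolar macrophages (-0.56) without the highest Scrublet scores. With at most 5000 genes, alveolar macrophages gave -2.17 for C5ar2, 1.89 for Itgam and 2.09 for Cd93. Without thinning, 207 of 228 shares of cells with a UMI moved, and at 2000 UMIs 122 of 228. The set of 3 most similar genes changed for all 8 receptors under Spearman's rho, while the nearest gene remained for C5ar2, Itgam, Itgax and Itgb2. Depth limits Vsig4, with 9 to 126 UMIs in a library, and Cr2 outside B cells.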
